A study of Mus musculus with 6 samples.

Results

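Integrins, laminins and collagens were followed at the mRNA level in mouse embryonic stem cells (ESCs) that lack Dgcr8. The genes were taken by name from a table of 13743 gene rows: every symbol that begins as an integrin alpha or beta chain, a laminin chain or a collagen chain. The rule found 51 genes, of which 48 encode chains (18 integrin, 9 laminin and 21 collagen). The other 3 carry such a name without being a chain: Itgb1bp1 and Itgb3bp encode proteins named as binding partners of integrin beta chains, and Col4a3bp encodes a ceramide transporter. The rule itself used names and no expression value, but it was chosen with earlier results of these data known.

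The study transfected the cells in 6-well plates 16 h after plating and profiled mRNA at 48 h, with 2 paired-end libraries per group. All 3 groups were Dgcr8-/- ESCs of a strain given as C57/129. CTR cells received a control transfection whose content the labels do not give (the deposited table heads it as mock), miR-294 cells received a miR-294 mimic at 50 nM, and siMbd2 cells received a small interfering RNA against Mbd2, also at 50 nM. Dgcr8 is needed to cut primary microRNA transcripts, so the controls, like the treated cells, lack most microRNAs of their own. The labels do not say whether the cells are 1 clone or whether the 2 libraries of a group came from separate cultures, so the p-values given here reflect the spread among these libraries, which may be technical.

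Integrins are receptors made of 1 alpha and 1 beta chain that span the cell membrane, bind matrix proteins outside and connect to actin inside. Laminins are trimers of an alpha, a beta and a gamma chain and form the first network of a basement membrane, which type IV collagen and the heparan sulfate collagen encoded by Col18a1 complete. ESCs make their own laminin and hold to it through Itgb1, and the basement membrane is the matrix on which the epiblast of the early embryo organises.

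The mature strand of miR-294 that carries the seed typical of ESC microRNAs is shown with 3 relatives of the same seed, because a match to this seed in the members' 3' UTRs is compared with their change further on. The sequences are from RefSeq (GRCm38.p6), 5' to 3', with the seed (bases 2 to 8) in capitals; mmu-miR-294-3p lies on the plus strand of chr7:3220691-3220712. The labels do not say which strand the mimic carries.
mmu-miR-294-3p: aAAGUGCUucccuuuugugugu
mmu-miR-291a-3p: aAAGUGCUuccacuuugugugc
mmu-miR-295-3p: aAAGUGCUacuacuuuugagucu
mmu-miR-302b-3p: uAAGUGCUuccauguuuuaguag

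In the annotated 3' UTRs (GENCODE vM21, GRCm38), 7 of the 30 members that could be tested held a match to this seed. Searched on the transcript strand were AGCACTTA (8 bases), AGCACTT (bases 2 to 8) and GCACTTA (bases 2 to 7 followed by A), and each transcript position was counted under the longest of them. The 6 matches printed here, each with the 20 bases before it and 2 after it, are those of tested members, with the match in capitals; the match in Lama3, an AGCACTT, is named without its sequence.
Itgb3, chr11:104669712-104669719, plus strand: ttagtgggtgcatctgatgtAGCACTTAgt
Itgav, chr2:83803757-83803763, plus strand: ccatcagtaagtttgcacagGCACTTAga
Itgb4, chr11:116008383-116008389, plus strand: agtccccagccttttgttctGCACTTAat
Col18a1, chr10:77052354-77052360, minus strand: atctcacagcagccacatgaAGCACTTgt
Col4a2, chr8:11448983-11448989, plus strand: ttcttggaggaggagatgatAGCACTTtt
Itgb3bp, chr4:99766570-99766576, minus strand: aataactctctatcccaaagGCACTTAga

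Levels are RPKM, reads per kilobase of transcript scaled to the mapped reads of the library, so they can be set side by side between genes. Read depth is not given and could not be read back from the values. Mbd2 was at 26.8 and 27.9 RPKM in CTR, 11.3 and 12.3 after miR-294 and 7.33 and 6.34 after siMbd2, so both treated groups lay below CTR. Dgcr8 was listed at 6.66 to 8.44 RPKM in all 6 libraries, so the deletion cannot be seen at gene level. The median difference between the 2 libraries of a group was 0.136 on the log2(RPKM + 1) scale for CTR, against 0.0626 for miR-294 and 0.0602 for siMbd2: the CTR libraries agreed least. The summed level of 8 ESC markers was 5454 to 7050 RPKM in every library. Most of that sum was Dppa5a, and single markers moved in both directions. With miR-294, 3 of the 8 had both libraries above both CTR libraries and 4 had both below. With siMbd2 these were 6 and 2. Nanog was at 354 and 372 RPKM in CTR, 206 and 211 after miR-294 and 297 and 279 after siMbd2. Pou5f1 was at 790 and 689 RPKM in CTR, 1059 and 1056 after miR-294 and 914 and 946 after siMbd2. Of 12 markers of primitive and parietal endoderm, matrix-making cells that can arise in ESC cultures, 9 were listed. Their sum was 203 to 219 RPKM in CTR, 123 to 127 after miR-294 and 203 to 205 after siMbd2. Nearly all of that sum was Sparc, itself a matrix glycoprotein, at 214 and 199 RPKM in CTR, 122 and 119 after miR-294 and 199 and 202 after siMbd2. Gata4 was also lower after miR-294, at 3.05 and 2.48 RPKM in CTR, 0.96 and 0.92 after miR-294 and 2.07 and 1.83 after siMbd2. The other 7 of the 9, all with a mean below 1 RPKM and not tested, had both miR-294 libraries above both CTR libraries. Among them Sox7 was at 0.10 and 0.20 RPKM in CTR and 1.28 and 1.15 after miR-294, Gata6 at 0.15 and 0.18 against 0.70 and 0.77, and Dab2 at 0.44 and 0.27 against 0.92 and 0.65, while Amn, Pdgfra, Sox17 and Foxa2 stayed at or below 0.84 RPKM in every library. Of 10 fibroblast markers that a feeder layer would bring, 5 were listed, with a sum of 14.4 to 15.8 RPKM in CTR, 16.1 to 16.9 after miR-294 and 24.5 to 26.3 after siMbd2, most of it Tagln. With miR-294, 2 of these 5 had both libraries above both CTR libraries and 1 had both below. For siMbd2 the counts were 2 and 3. Thy1 was at 1.56 and 1.47 RPKM in CTR and 3.60 and 3.37 after miR-294. Acta2 was at 0.74 and 0.73 RPKM in CTR and 1.59 and 1.79 after miR-294, while Tagln was the 1 with both below. Col1a1, the main fibroblast collagen, was at 0.06 to 0.29 RPKM. Trophoblast markers summed to 76.3 to 99.3 RPKM and endothelial and blood markers to 4.77 to 7.95. Neural markers summed to 10.8 and 11.2 in miR-294 and 21.3 to 23.4 in the other libraries. All 4 listed had both miR-294 libraries below both CTR libraries. With siMbd2, 1 of the 4 had both libraries above CTR and 2 had both below. Nes was at 3.61 and 3.97 RPKM in CTR and 6.13 and 7.29 after siMbd2. Sox1 was at 8.25 and 8.38 RPKM in CTR and 4.88 and 4.18 after siMbd2. Of the 8 trophoblast markers listed, 5 had both miR-294 libraries above both CTR libraries. Hand1 was at 1.37 and 1.53 RPKM in CTR and 3.98 and 4.59 after miR-294. The 1 with both below was Tfap2c, at 28.4 and 26.2 RPKM in CTR and 9.08 and 8.60 after miR-294. With siMbd2 these counts were 6 and 1. The part of such cells in the results was not tested, and in these bulk samples fewer cells of a type and less RNA per cell cannot be told apart.

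With miR-294, 15 of the 30 tested members fell, among them Itgb1, Itgav, Lamb2 and Col18a1, and 7 rose. With siMbd2, 18 were not called, and the 8 that rose included Itga9, Itga3 and the type IV collagen pair. A gene was tested when its mean over the 6 libraries was at least 1 RPKM (30 of the 51 members, 27 of the 48 chains) and called at an adjusted p under 0.05 in limma. Against CTR, miR-294 had 7 members higher and 15 lower, where 27.7% of all 11428 tested genes were called higher and 36.8% lower. The median log2 change of the members was -0.27, against -0.08 for all tested genes. The balance over all genes turned with the scaling: higher calls made up 42.9% of the calls for miR-294 against CTR, 49.4% with median-of-ratios scaling and 51.3% after quantile normalization. Among the members, the matching shares of higher calls were 31.8%, 36.4% and 39.1%. With siMbd2, 8 members were higher and 4 lower, where 19.5% of all tested genes were higher and 14.9% lower. The median of the members was 0.05 there, against 0.02 for all genes. The number of members called lower with siMbd2 rose when CTR replicate 2 was left out, and higher calls then no longer outnumbered lower ones. Lower calls over all tested genes also rose, but by a smaller proportion. The balance of the members with siMbd2 thus depended on that CTR library. Between the treatments, miR-294 had 6 members higher than siMbd2 and 18 lower, where 21.9% of all tested genes were higher and 35.5% lower; the medians were -0.54 for members and -0.08 for all genes. Higher calls made up 38.1% of the calls over all genes in that comparison and 51.5% after quantile normalization, which moved the median of all genes to 0.03; among the members they made up 25% and 30.4%. Comparisons of miR-294 and of siMbd2 with CTR share the CTR libraries, so the contrast of the treatments is the test of whether they differ. A group of 2 against 2 cannot reach an exact permutation p below 0.333 for a single gene, so the tests rest on the spread pooled over all genes and groups. All differences given for single genes are on the log2(RPKM + 1) scale, which understates the change of low genes.

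**Figure D1:**
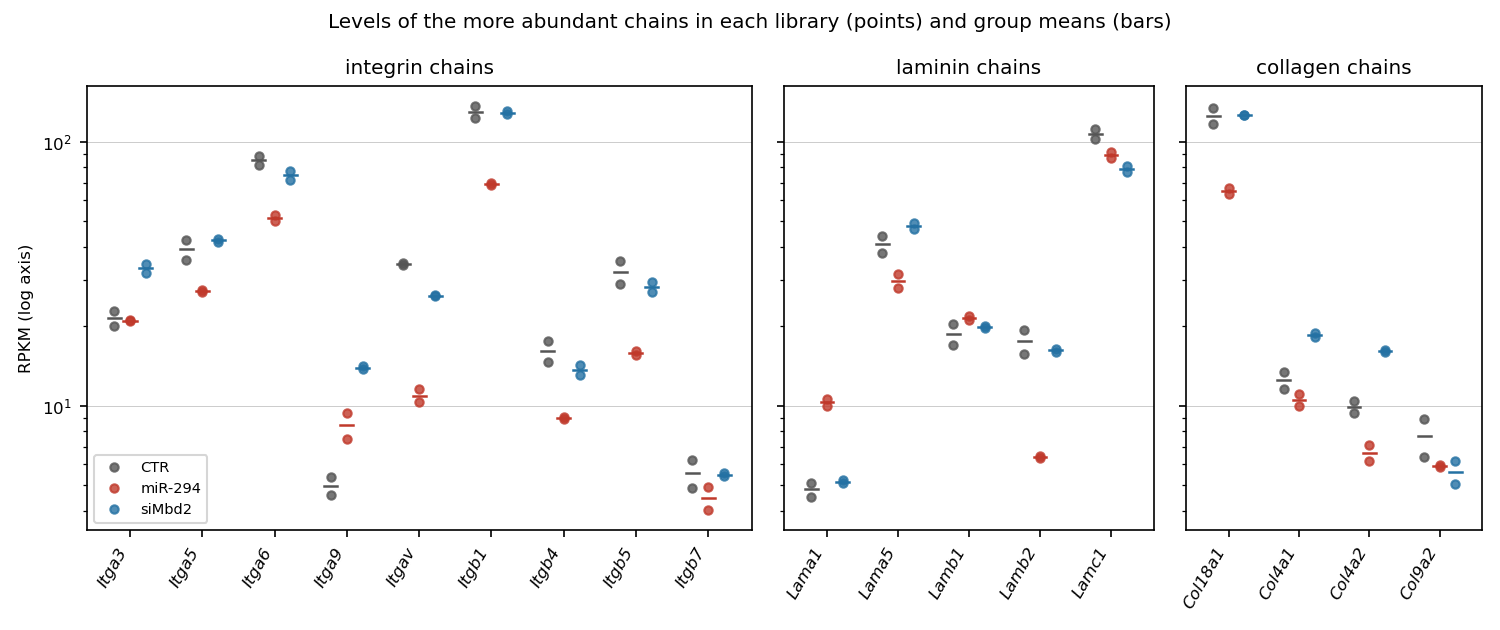
Levels of the more abundant chains in the 6 libraries, in RPKM on a log axis, with 1 point per library and colours for CTR, miR-294 and siMbd2. Itgb1, Lamc1 and Col18a1 sit highest, and Itgb1 and Col18a1 have both miR-294 points below all 4 other points.

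Among the integrin beta chains, the fall with miR-294 ran through 4 of the 5, where 36.8% of all tested genes were called lower. Itgb3, 1 of the 4, had a miR-294 mean of 0.945 RPKM and passed the minimum through the other groups. The filter thus helped this count. Itgb1 (chr8:128685654-128733200, GRCm38), the shared beta chain of most matrix receptors, was the highest in every library: 123 and 136 RPKM in CTR, 68.5 and 69.7 after miR-294, and 127 and 130.1 after siMbd2. The miR-294 libraries lay below the other 4, which overlapped. Itgb1 fell by 0.90 on the log2 scale (SE 0.062, adjusted p 9.32e-06) with miR-294, while its difference in siMbd2 was -0.01 with a 95% interval from -0.15 to 0.13. Itgb5, a partner of Itgav in vitronectin receptors, was at 35.2 and 28.9 RPKM in CTR, 16.1 and 15.6 after miR-294 and 29.3 and 27.01 after siMbd2. It fell by 0.97 (adjusted p 4.71e-05) with miR-294; in siMbd2 the difference was -0.18 (adjusted p 0.182), and -0.31 (adjusted p 0.0103) without CTR replicate 2.

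Itgb3, the other vitronectin receptor beta chain and the tested member with the 8-base match, was at 4.59 and 3.64 RPKM in CTR, 0.95 and 0.94 after miR-294 and 1.99 and 1.84 after siMbd2. The 3 groups did not overlap. Itgb3 fell by 1.39 (SE 0.11, adjusted p 1.53e-05) with miR-294 and by 0.81 (adjusted p 0.00138) with siMbd2, and miR-294 lay 0.58 below siMbd2 (adjusted p 0.00204). Itgb4, which anchors epithelial cells to laminin in hemidesmosomes, was at 17.6 and 14.6 RPKM in CTR, 8.87 and 9.06 after miR-294 and 13.1 and 14.2 after siMbd2. It fell by 0.78 (adjusted p 1.65e-04) with miR-294 and differed by -0.22 (adjusted p 0.108) in siMbd2; without CTR replicate 2 that became -0.35 (adjusted p 0.0108). Itgb7, known from lymphocytes, was at 6.25 and 4.88 RPKM in CTR, 4.93 and 4.02 after miR-294 and 5.54 and 5.44 after siMbd2. Its groups overlapped and neither comparison with CTR was called, although the miR-294 difference of -0.26 (adjusted p 0.0962) became -0.41 (adjusted p 0.0149) without CTR replicate 2.

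Of the 13 alpha chains, 5 were tested, and these moved in different directions. Itgav (chr2:83724397-83806916), the alpha chain of vitronectin receptors, was at 34.6 and 34.2 RPKM in CTR, 11.6 and 10.3 after miR-294 and 26.1 and 26.2 after siMbd2. The 3 groups stood apart, with siMbd2 between the other groups. Itgav fell by 1.57 (SE 0.072, adjusted p 2.03e-06) with miR-294, the lowest log2 change of the tested members, and by 0.38 (SE 0.072, adjusted p 0.00513) with siMbd2. The siMbd2 call was lost without siMbd2 replicate 2 (adjusted p 0.0530, at a difference of -0.38). The 3 vitronectin receptor chains Itgav, Itgb3 and Itgb5 thus all fell with miR-294.

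Itga6, a laminin receptor alpha chain, was the highest alpha chain: 81.4 and 88.3 RPKM in CTR, 52.6 and 50.1 after miR-294 and 77.5 and 71.4 after siMbd2. It fell by 0.71 (adjusted p 4.04e-05) with miR-294. In siMbd2 its difference of -0.19 was not called (adjusted p 0.0636), but it was without CTR replicate 1 (-0.24, adjusted p 0.0149). Itga5, the alpha chain of the classical fibronectin receptor, was at 42.5 and 35.7 RPKM in CTR, 27.3 and 27.1 after miR-294 and 41.8 and 42.7 after siMbd2. It fell by 0.50 (adjusted p 7.86e-04) with miR-294, and its siMbd2 libraries overlapped CTR (0.11, adjusted p 0.311; 0.24, adjusted p 0.00693, without CTR replicate 1).

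Itga3 and Itga9 did not fall in either group. Itga3, another laminin receptor chain, was at 22.9 and 20.1 RPKM in CTR, 21.1 and 20.9 after miR-294 and 31.8 and 34.4 after siMbd2. With miR-294 it differed by -0.03 (95% interval -0.21 to 0.16; 0.04 with median-of-ratios scaling or quantile normalization), and it rose by 0.60 (adjusted p 0.00125) with siMbd2. Itga9, a receptor chain for tenascin and osteopontin, was at 4.60 and 5.37 RPKM in CTR, 9.35 and 7.51 after miR-294 and 14.1 and 13.8 after siMbd2. It rose in both: by 0.65 (adjusted p 9.71e-04) with miR-294 and by 1.32 (SE 0.11, adjusted p 2.68e-04) with siMbd2, with miR-294 0.67 below siMbd2 (adjusted p 0.00108).

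Together, 7 integrin chains fell and 1 rose of the 10 tested with miR-294, where 36.8% of all tested genes fell and 27.7% rose. Itgb3, 1 of the 7, had a miR-294 mean of 0.945 RPKM, below the minimum, so this count was helped by the filter. With siMbd2 2 rose and 2 fell, near the shares over all genes (19.5% and 14.9%). Between the treatments, 9 of the 10 were lower in miR-294, where 35.5% of all tested genes were lower and 21.9% higher. Itgb3 was 1 of these 9 too, so the filter helped that count as well. All 10 differences were negative (-1.19 to -0.25), against a median of -0.08 for all tested genes. The neural marker sum was also lower after miR-294, as were Sparc and Gata4 of the endoderm markers, while the other 7 listed endoderm markers were higher there; their part in this was not tested. The summed level of all 18 integrin chains was 377 and 376 RPKM in CTR, 228 and 221 after miR-294 and 374 and 371 after siMbd2. Within the sums, the share of Itgav among alpha chains was 18.2% in both CTR libraries, 9.03% and 8.45% after miR-294, and 13.3% and 13.6% after siMbd2. The share of Itga9 was 2.42% and 2.86% in CTR, 7.30% and 6.16% in miR-294, and 7.17% in both siMbd2 libraries. Itgb1 kept 65.9% to 72.8% of the beta chain sum in every library, with the CTR pair spanning most of that range.

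**Figure D2:**
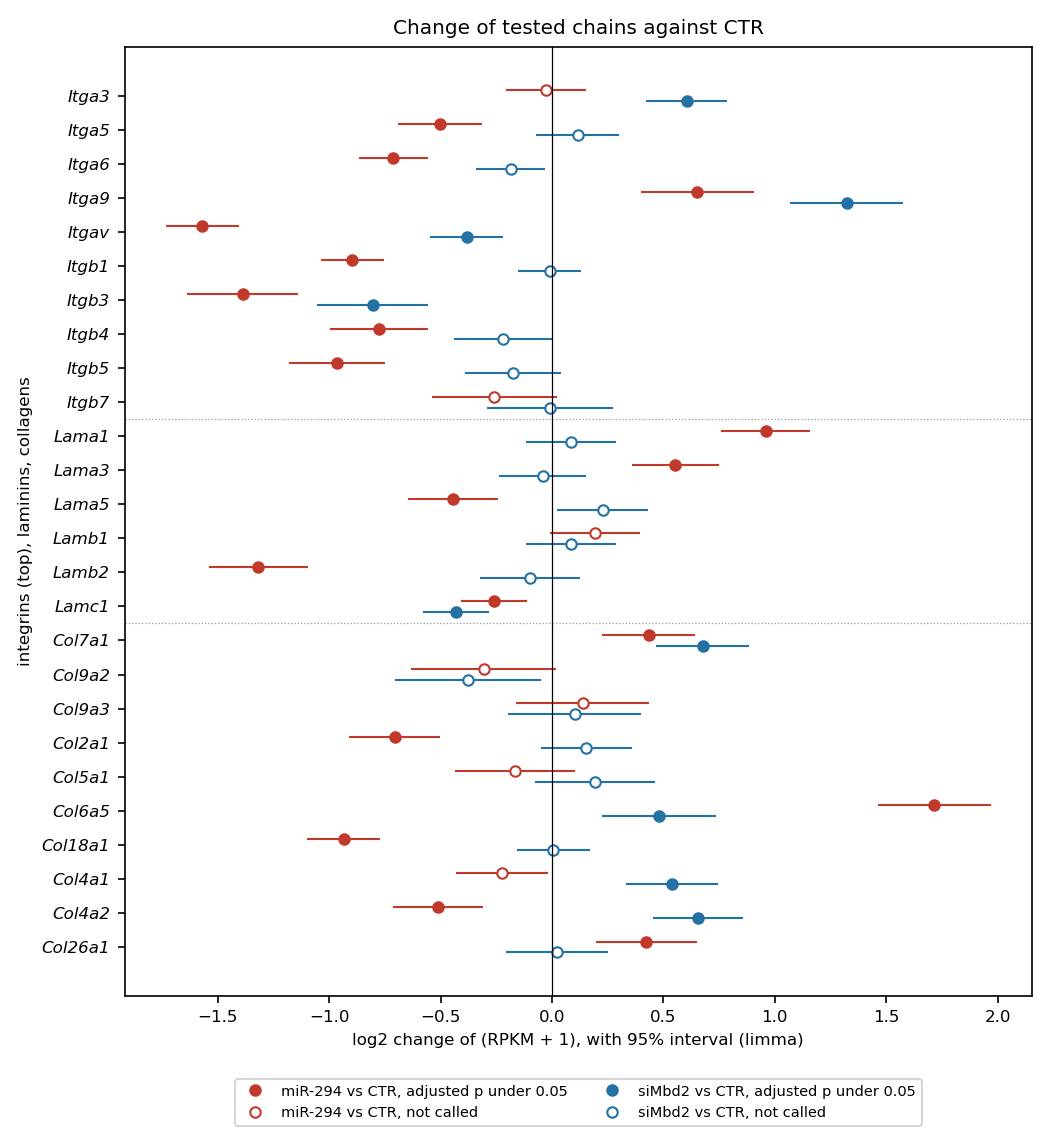
Difference of tested chains from CTR on the log2(RPKM + 1) scale with its 95% limma interval, for miR-294 and siMbd2; filled points were called at an adjusted p under 0.05. Most integrins lie left of 0 with miR-294, and Col4a2 lies on opposite sides of 0 in the 2 treatments.

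The laminin chains moved in both directions. With miR-294, Lama1 and Lama3 rose and Lama5, Lamb2 and Lamc1 fell. Lama5 was the highest laminin alpha chain in every library. It was at 44.1 and 37.8 RPKM in CTR, 31.6 and 27.96 after miR-294 and 46.8 and 49.1 after siMbd2. Lama1, the alpha chain of the first embryonic laminin, was at 5.12 and 4.52 RPKM in CTR, 10.6 and 9.96 after miR-294 and 5.23 and 5.10 after siMbd2. The groups did not overlap between CTR and miR-294 for either gene, with Lama5 lower and Lama1 higher. Lama5 fell by 0.45 (adjusted p 0.00231) and Lama1 rose by 0.96 (adjusted p 3.47e-05) with miR-294. In siMbd2 neither was called; the difference of Lama5 was 0.23 (adjusted p 0.0786), and 0.34 (adjusted p 0.0105) without CTR replicate 1. Lama3, the alpha chain of the hemidesmosome laminin, was at 2.93 and 3.17 RPKM in CTR, 4.91 and 4.97 after miR-294 and 2.95 and 2.91 after siMbd2. It rose by 0.55 (adjusted p 5.46e-04) with miR-294 and differed by -0.04 (adjusted p 0.727) in siMbd2.

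Lamb1 and Lamb2, the alternative beta chains, were about level in CTR and separated with miR-294. Lamb2, the beta chain of synapse and kidney laminins, was at 19.4 and 15.7 RPKM in CTR, 6.46 and 6.34 after miR-294 and 16.4 and 16.0 after siMbd2. Lamb1, the beta chain of early basement membranes, was at 20.5 and 17.02 RPKM in CTR, 21.9 and 21.1 after miR-294 and 19.99 and 19.7 after siMbd2. Lamb2 fell by 1.32 (SE 0.098, adjusted p 1.27e-05) with miR-294. The difference of Lamb1 was 0.19 (adjusted p 0.0839), and it was called with median-of-ratios scaling (0.26, adjusted p 0.0152), with quantile normalization (0.26, adjusted p 0.0201) and without CTR replicate 1 (0.32, adjusted p 0.00203). In siMbd2 the differences of Lamb1 (0.09, adjusted p 0.484) and Lamb2 (-0.10, adjusted p 0.457) were not called. Leaving out a CTR library decided both: without CTR replicate 1 Lamb1 was called at 0.21 (adjusted p 0.0211), and without CTR replicate 2 Lamb2 was called at -0.24 (adjusted p 0.0263).

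Lamc1 (chr1:153218922-153332786), the common gamma chain, was at 112 and 102 RPKM in CTR, 91.1 and 86.7 after miR-294 and 80.9 and 76.8 after siMbd2. It fell by 0.26 (adjusted p 0.00739) with miR-294, a call lost without miR-294 replicate 2 (-0.23, adjusted p 0.0725), and by 0.43 (adjusted p 0.00207) with siMbd2.

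As shares of the laminin mRNA of each kind, Lama5 made up 83.9% and 82.4% of the alpha chains in CTR, 66.2% and 64.5% after miR-294 and 84.6% and 85.6% after siMbd2. The share of Lama1 was 9.75% and 9.86% in CTR, 22.3% and 22.99% after miR-294 and 9.46% and 8.89% after siMbd2. Lamb1 made up 50.5% and 51.2% of the beta chains in CTR, 75.4% and 75.6% after miR-294 and 53.7% and 53.9% after siMbd2. In each of these the miR-294 pair stood apart from the other 4 libraries. The shares describe mRNA, not assembled trimers.

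**Figure D3:**
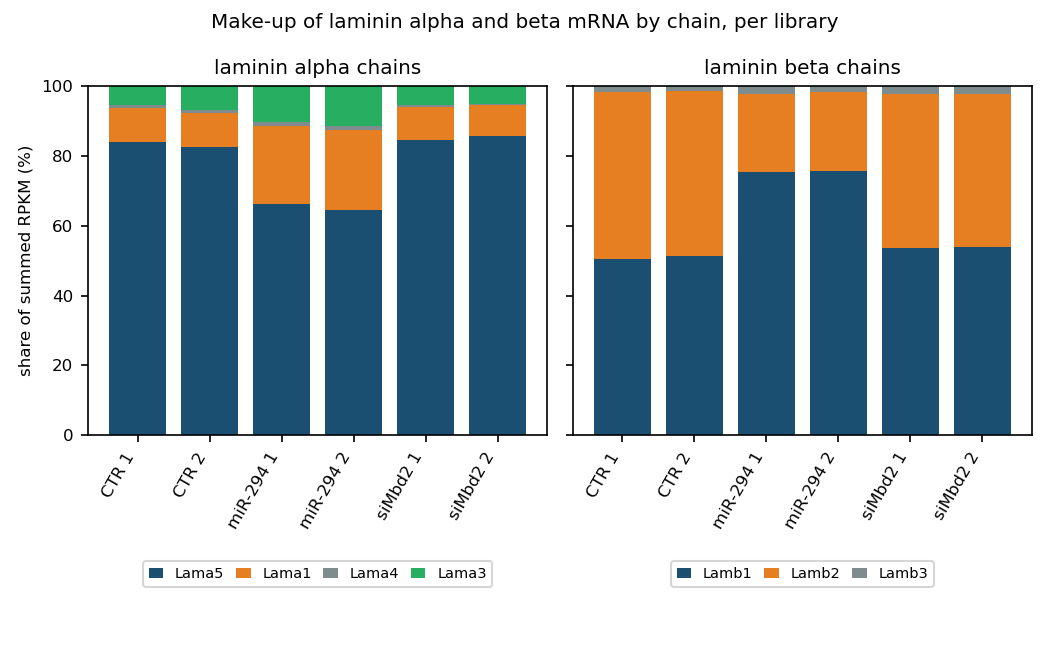
Stacked bars of the share (%) of each laminin chain in the summed RPKM of the alpha chains and of the beta chains, with 1 bar per library. The miR-294 bars have more Lama1 and Lamb1 than the CTR bars.

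The collagens were dominated by Col18a1, and few of the others were expressed. Of 21 collagen chains 10 were tested. With miR-294 3 rose and 3 fell, near the 27.7% and 36.8% over all tested genes. With siMbd2 4 rose and none fell (limma; at an unadjusted p under 0.05, 1, Col9a2, was lower), where 19.5% of all tested genes rose and 14.9% fell. All 3 that rose with miR-294 (Col6a5, Col7a1 and Col26a1) and 2 of the 4 that rose with siMbd2 (Col6a5 and Col7a1) had a CTR mean below the minimum and were tested because of the groups where they were high, so the counts of rises were helped by the filter. Beside the siMbd2 rises, Tagln, which carries the fibroblast marker sum, was at 12.3 and 11.2 RPKM in CTR and 21.96 and 23.65 after siMbd2, while Thy1 was at 1.56 and 1.47 in CTR and 0.96 and 1.13 after siMbd2. Their part was not tested. Col18a1 (chr10:77052178-77166548), the basement membrane collagen from which endostatin is cut, was at 134 and 117 RPKM in CTR, 66.8 and 63.1 in miR-294 and 126 in both siMbd2 libraries. The miR-294 libraries lay below all others, and siMbd2 lay within the CTR range. Col18a1 fell by 0.94 (SE 0.072, adjusted p 1.41e-05) with miR-294, and its siMbd2 difference was 0.01 with a 95% interval from -0.16 to 0.17. Its share of the collagen sum was 73.9% and 74.9% in CTR, 61.7% and 61.3% after miR-294 and 68.9% and 68.5% after siMbd2.

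Col4a1 and Col4a2 encode the chains of the main type IV collagen network and start head to head on chromosome 8. In the annotation (GRCm38) the first 22 bases of Col4a2, on the plus strand, and of Col4a1, on the minus strand, are the same stretch, chr8:11312805-11312826. That stretch is printed on the plus strand with its 4 CG dinucleotides in capitals, since Mbd2 binds methylated CG; no methylation or binding was measured here.
Col4a2 start to Col4a1 start: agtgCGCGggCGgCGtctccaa
The RefSeq windows of 300 bases around each start held 37 CG for Col4a1 and 33 for Col4a2, where 94.4% and 91.4% of 32851 windows held fewer. Members with other responses also had CG-dense windows, with 27 CG at Itgb1 and 24 at Itgav and Lama5. Among other members that rose with siMbd2, Itga9 and Col6a5 held 10 CG each and Col7a1 held 12. Itgb1bp1 held 22, and the windows of Itga3 held 5 and 24. A window was given for 34 of the 51 members. Col4a1 was at 13.4 and 11.5 RPKM in CTR, 11.04 and 10.01 after miR-294 and 18.2 and 18.9 after siMbd2. Col4a2 was at 10.4 and 9.38 RPKM in CTR, 7.08 and 6.20 after miR-294 and 16.0 and 16.3 after siMbd2. Both genes were highest in siMbd2 and lowest in miR-294, without overlap. Col4a1 rose by 0.54 (adjusted p 0.00318) and Col4a2 by 0.66 (adjusted p 0.00136) with siMbd2. With miR-294, Col4a2, which holds a seed match, fell by 0.51 (adjusted p 0.00106); Col4a1, which holds none, differed by -0.22 (adjusted p 0.0558), and by -0.32 (adjusted p 0.00726) without CTR replicate 2. The level of Col4a1 over that of Col4a2 was 1.29 and 1.23 in CTR, 1.56 and 1.61 after miR-294 and 1.14 and 1.16 after siMbd2, so the pair did not move in fixed proportion. That ratio was not tested.

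Col6a5, a microfibril collagen chain, was at 0.79 and 0.75 RPKM in CTR, 4.66 and 4.97 after miR-294 and 1.72 and 1.24 after siMbd2. It had the highest log2 change of the tested members with miR-294 (1.72, adjusted p 6.91e-06). It also rose with siMbd2 (0.48, adjusted p 0.0123), a call lost without siMbd2 replicate 1 (0.34, adjusted p 0.0932). Col2a1, the fibrillar collagen of cartilage, was at 4.03 and 3.58 RPKM in CTR, 1.92 and 1.96 after miR-294 and 4.27 and 4.41 after siMbd2. It fell by 0.71 (adjusted p 1.87e-04) with miR-294 and differed by 0.15 (adjusted p 0.216) in siMbd2. Col9a2, a fibril-associated chain, was at 8.92 and 6.41 RPKM in CTR, 5.87 and 5.99 after miR-294 and 6.20 and 5.04 after siMbd2. Neither difference of Col9a2 was called, and the CTR libraries were wide apart; without CTR replicate 2, Col9a2 was lower with miR-294 (-0.52, adjusted p 0.00545) and with siMbd2 (-0.59, adjusted p 0.00774).

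The remaining tested collagens were low. Col7a1, which forms anchoring fibrils of skin, had a mean of 0.74 RPKM in CTR, 1.35 after miR-294 and 1.78 after siMbd2, and was called higher in both (0.43 and 0.68). Col26a1 had a mean of 0.85 RPKM in CTR, 1.48 after miR-294 and 0.88 after siMbd2 and rose with miR-294 (0.42, adjusted p 0.00548). Col5a1, a fibrillar chain, was at 1.93 and 1.46 RPKM in CTR, 1.38 and 1.40 after miR-294 and 1.85 and 2.3 after siMbd2. It was not called against CTR, and its lower level in miR-294 than in siMbd2 (-0.36, adjusted p 0.0283) was lost without either miR-294 library (adjusted p 0.105 and 0.0972) or without siMbd2 replicate 2 (0.185). Col9a3, at 0.86 to 1.39 RPKM, was not called in any comparison, although miR-294 against CTR without CTR replicate 1 gave 0.32 (adjusted p 0.0427). Col26a1, Col6a5, Col7a1 and Itgb3 had a mean below 1 RPKM in at least 1 group and passed the minimum through the others. Such genes had to differ, so the counts of tested members are not counts of all members.

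The 3 genes that share only a name moved differently from each other. Itgb1bp1, whose product binds the tail of Itgb1 and dampens its activation, was at 6.45 and 7.23 RPKM in CTR, 10.9 and 10.5 after miR-294 and 9.51 and 8.38 after siMbd2. It rose by 0.57 (adjusted p 6.70e-04) with miR-294, where Itgb1 fell, and by 0.34 (adjusted p 0.0214) with siMbd2. The siMbd2 call was lost without either siMbd2 library (0.26, adjusted p 0.167, without replicate 1; 0.42, adjusted p 0.0557, without replicate 2). Itgb3bp, a centromere protein first named for binding Itgb3, was at 3.09 and 4.16 RPKM in CTR, 4.2 and 4.99 after miR-294 and 1.95 and 1.33 after siMbd2. It fell by 0.81 (adjusted p 0.00513) with siMbd2. With miR-294 it differed by 0.28 (adjusted p 0.135), called without CTR replicate 2 (0.45, adjusted p 0.0387). Col4a3bp was at 11.99 and 13.8 RPKM in CTR, 10.2 and 10.8 after miR-294 and 11.9 and 12.2 after siMbd2. Its fall of 0.27 with miR-294 (adjusted p 0.0212) was lost with median-of-ratios scaling (adjusted p 0.0798), with quantile normalization (0.363), without CTR replicate 2 (0.0588) and without either miR-294 library (0.133 and 0.0554).

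The 21 members below the minimum ranged from 0.06 to 1.68 RPKM over all libraries, and none was listed at 0. They were the integrin alpha chains Itga1, Itga10, Itga2b, Itga4, Itga7, Itga8, Itgae and Itgal, the laminins Lama4 and Lamb3, and 11 collagens: Col11a1, Col11a2, Col13a1, Col16a1, Col17a1, Col1a1, Col20a1, Col22a1, Col27a1, Col5a3 and Col8a2. Among them, 3 had a mean of at least 1 RPKM in some group. The alpha chains typical of leukocytes (Itga4, Itgal, Itgae) and platelets (Itga2b) are in this set, as are the fibrillar chains Col11a1 and Col1a1. No difference was tested for these genes.

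Seed matches in the 3' UTR were compared with the direction of change for miR-294 against CTR. Among the 27 tested chains, 6 (22.2%) held a match, of which 5 fell and 1 rose. Itgb3, 1 of the 5, passed the minimum through groups other than miR-294. Among the 21 without a match, 9 fell and 5 rose. Itgb3bp, the tested member with a match that encodes no chain, differed by 0.28 and was not called. Counted with it, 5 of 7 tested members with a match fell. Over the 10806 tested genes with an annotated 3' UTR, 20.9% held a match, and 51.2% of those were called lower, against 33.4% of the genes without one. Called higher were 363 of the 2260 genes with a match and 2631 of the 8546 without. The median log2 change over all tested genes was -0.37 with the 8-base match, -0.22 with either 7-base match and -0.03 without a match. Of the chains without a match, Lamb2 fell by 1.32, Itgb5 fell by 0.97 and Itgb1 fell by 0.90. The presence of a match is a description of the letters in 1 annotated 3' UTR, and 3' UTRs with a match were longer: the median length over all tested genes was 2472 bases with a match and 905 without.

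**Figure D4:**
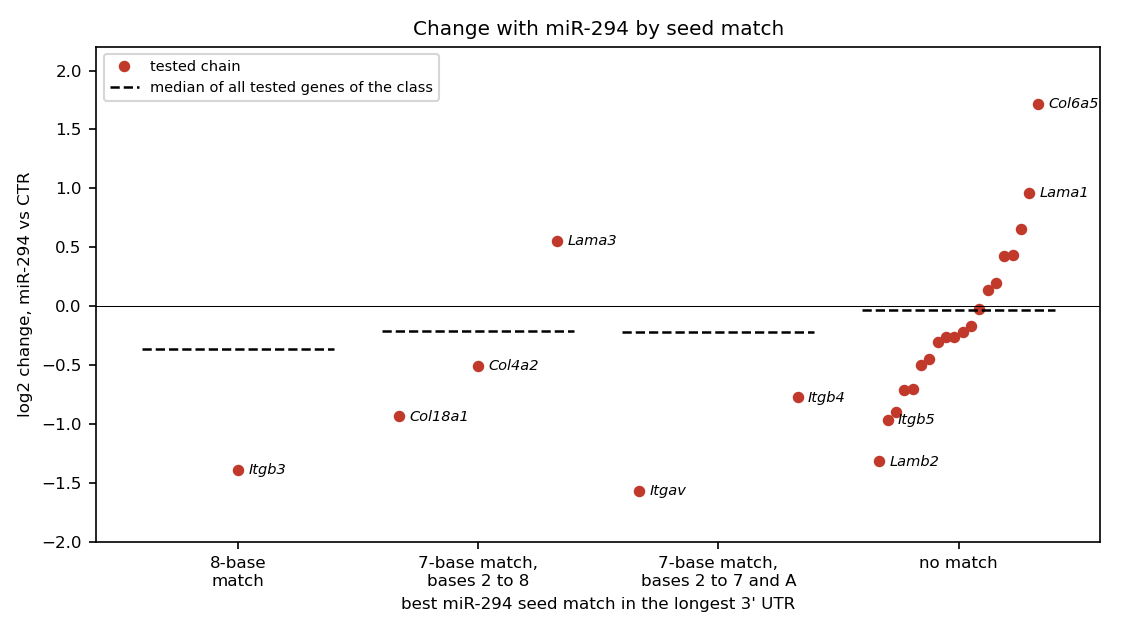
Log2 change of tested chains with miR-294 against CTR, arranged by its best seed match in the longest 3' UTR; dashed lines are medians of all tested genes of the class. Itgav and Itgb3 are lowest among chains with a match, Lama3 is the one above 0, and Lamb2 lies at -1.32 in the class without a match.

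Genes that act with the members were read from 4 lists of the pathway, whose shares of calls are set beside those over all tested genes: 36.8% lower and 27.7% higher with miR-294, and 14.9% lower and 19.5% higher with siMbd2. Of 26 genes for integrin activation and focal adhesions, 23 were tested: 11 fell and 3 rose with miR-294, and 3 fell and 6 rose with siMbd2, with medians of -0.23 and 0.08. These are 47.8% lower and 13.04% higher with miR-294, and 13.04% lower and 26.1% higher with siMbd2, the latter near the shares over all genes. More of the list rose with siMbd2 without CTR replicate 1 and fewer without siMbd2 replicate 2, and fewer fell without either siMbd2 library. The calls over all tested genes moved the same way. Parva, which with Ilk forms the complex that links integrin tails to actin, was at 37.8 and 30.7 RPKM in CTR, 7.46 and 6.57 after miR-294 and 27.7 and 25.5 after siMbd2. Parva fell by 2.13 (adjusted p 2.67e-06) with miR-294. Its fall with siMbd2 (-0.35, adjusted p 0.0347) was lost without CTR replicate 1 (-0.20, adjusted p 0.0917), siMbd2 replicate 1 (0.0879) or siMbd2 replicate 2 (0.207). Ilk, the kinase-like hub of that complex, was at 31.1 and 28.9 RPKM in CTR, 17.3 and 18.5 after miR-294 and 35 and 32.5 after siMbd2, and fell by 0.72 with miR-294. In siMbd2 its difference of 0.16 (adjusted p 0.113) was called without CTR replicate 1 (0.21, adjusted p 0.0367). Both lay lower in miR-294 than in any other library. Parvb, the paralogue of Parva, rose by 0.37 with miR-294 and by 0.69 with siMbd2. Actn4, an actin crosslinker, rose by 0.67 with miR-294 and by 0.46 with siMbd2, the latter lost without either siMbd2 library (adjusted p 0.0598 and 0.0570).

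Of 21 other basement membrane and matrix glycoproteins, 17 were listed and 13 tested. With miR-294, 11 fell and 1 rose (median -0.37), and with siMbd2 2 fell and 3 rose (median 0.05). More rose with siMbd2 when CTR replicate 1 was left out, as over all tested genes. The shares were 84.6% lower and 7.69% higher with miR-294, and 15.4% lower and 23.1% higher with siMbd2, the latter near the shares over all genes. Ntn1, a laminin-related guidance cue, was the 1 that rose with miR-294: it was at 6.56 and 6.55 RPKM in CTR, 19.7 and 18.7 after miR-294 and 13.8 and 15.6 after siMbd2. It rose by 1.42 with miR-294 and by 1.05 with siMbd2. Npnt, a basement membrane ligand of integrins, was at 8.59 and 8.15 RPKM in CTR, 3.42 and 3.10 after miR-294 and 5.23 and 4.65 after siMbd2, and it fell by 1.14 with miR-294 and fell by 0.66 with siMbd2. Spp1, which encodes osteopontin, fell by 0.81 with miR-294 and rose by 0.23 with siMbd2, a call lost with quantile normalization (0.12, adjusted p 0.0721) and without either siMbd2 library (adjusted p 0.0928 and 0.101). Sparc, a collagen-binding glycoprotein, fell by 0.78 with miR-294 and differed by -0.04 in siMbd2 (0.01 without CTR replicate 1).

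Of 30 genes that fold, process and crosslink collagen, 26 were listed and 20 tested. With miR-294, 14 fell and 3 rose (median -0.33), and with siMbd2 1 fell and 3 rose (median 0.03). The shares were 70% lower and 15% higher with miR-294, and with siMbd2 5% lower and 15% higher, both below the shares over all genes. The siMbd2 counts depended on single libraries. More genes rose without CTR replicate 1 and fewer without either siMbd2 library, and more fell without either CTR library. The calls over all tested genes changed in the same directions. Loxl4, a collagen crosslinking oxidase, was at 11.1 and 8.94 RPKM in CTR, 1.79 and 1.59 after miR-294 and 10.97 and 10.8 after siMbd2; it fell by 2.03 with miR-294, and in siMbd2 differed by 0.12 (adjusted p 0.418; 0.26 and 0.0465 without CTR replicate 1). Serpinh1, the collagen chaperone, was at 68.8 and 58.8 RPKM in CTR, 29.5 and 27.4 after miR-294 and 47.2 and 43.1 after siMbd2. It fell by 1.13 with miR-294 and by 0.49 with siMbd2, the 1 gene of the list that fell with siMbd2. The prolyl hydroxylase P4ha1 fell by 1.0006 and the hydroxylation cofactor Crtap fell by 0.88 with miR-294; in siMbd2 Crtap differed by 0.17 (adjusted p 0.176; 0.31 and 0.00252 without CTR replicate 1). Of 10 matrix proteases and inhibitors, 8 were listed and 7 tested. With miR-294 3 fell and 2 rose, or 42.9% and 28.6%, near the shares over all genes. Fewer rose without miR-294 replicate 1, as over all tested genes. With siMbd2 2 fell and 3 rose (28.6% and 42.9% of these few genes). Fewer fell without either siMbd2 library, as over all tested genes. Fewer also fell without CTR replicate 1, where more fell over all tested genes. Mmp14, the membrane collagenase, fell by 0.92 with miR-294 and rose by 0.34 with siMbd2, the latter lost without either siMbd2 library (adjusted p 0.108 and 0.105). Mmp9, a type IV collagen protease, rose by 0.81 with miR-294 and by 0.64 with siMbd2. Mmp11 fell by 0.71 and Timp1, an inhibitor of these proteases, fell by 0.66 with miR-294.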

How the data were processed

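The authors deposited one table of RPKM per gene and library, with the unit per the file headers, to 2 decimals; per the labels, each library is the average of 2 lanes. The submitters' processing notes name CASAVA 1.7, STAR 2.3.0, Cufflinks and the build mm10 without their roles, and neither the annotation nor the strand setting is stated there. The authors' deposited table also holds their ratio (fold) of group means, which was not used for any value printed here. Depth could not be recovered from the RPKM values, so its effect on precision is unknown.

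All tests used limma 3.58.1 in R 4.3.3 on log2(RPKM + 1), with 3 groups in 1 fit, an intensity trend, 3 residual and 5.38 prior degrees of freedom, two-sided tests and Benjamini-Hochberg adjustment over the 11428 of 13743 rows with a mean of at least 1 RPKM. The code was tested on simulated data. Tables and plots used Python 3.11.15, numpy 2.4.6, pandas 2.3.3 and matplotlib 3.10.9.

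Member loci and longest 3' UTRs came from GENCODE vM21 (GRCm38), with 10806 tested genes having a 3' UTR; microRNAs and promoter windows came from RefSeq (GRCm38.p6).

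Members, lists and the naming rule were chosen with earlier results of these data known. The naming rule gave per-library values for members reaching a group mean of 5 RPKM, or called with a higher group of at least 2 RPKM, and up to 4 called genes of each other list, by largest change against CTR, with a higher group of at least 5 RPKM. Cell type markers were read as sums per library and, for some lists, as single genes. Alternatives varied the pseudocount, the minimum, the scaling, the libraries in the fit, the replicate block, the trend and symbols on several rows; for genes outside the members they were added after seeing the data. The values of 1 member are not reported here; it is counted in the totals and left out of the figures.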

Additional observations from a re-analysis of the deposited data

How the results depend on the processing

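No called member reversed under any alternative run, and 20 of 22 calls for miR-294 against CTR, 9 of 12 for siMbd2 against CTR and 20 of 24 between the treatments were called in every one. Without a minimum level, 12 members were called higher with miR-294 against CTR and 12 against siMbd2. Over all 13743 rows these were 3585 and 2931. With a minimum mean of 5 RPKM, 3 and 2 members were called higher, because other genes were tested, and 2 were called lower with siMbd2 against CTR. Over all 8398 genes then tested, 2625 and 1988 were higher and 1101 lower in these comparisons. Leaving out 1 library at a time changed the counts of members called higher and lower in every comparison. The counts over all tested genes changed as well, so such changes are not particular to the members. Lower calls with siMbd2 without CTR replicate 2 rose by a larger proportion among the members than over all tested genes.

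With a replicate block, the counts were 7 higher and 18 lower for miR-294 against CTR, 8 and 5 for siMbd2 against CTR, and 6 and 17 between the treatments. The numbers were not shown to pair the libraries: the correlation of the replicate differences was 0.119, 0.132 and 0.0218 for the 3 pairs of groups. Some differences not called with all libraries changed sign, and the cause was not tested. Of these, Col9a3 with miR-294 and Itga5, Lamb1 and Loxl4 with siMbd2 were called higher without CTR replicate 1 (0.318, 0.237, 0.211 and 0.259), and Lamb2 was called lower with siMbd2 without CTR replicate 2 (-0.243). With median-of-ratios scaling, Itga3 with miR-294 was at 0.0395 and Col18a1 with siMbd2 at -0.0049. With quantile normalization, Itga3 with miR-294 was at 0.0365, and with siMbd2 Col18a1 was at -0.0741, Itgb7 at 0.0236 and Lama3 at 0.01. Over the left-out libraries the ranges with miR-294 against CTR were -0.119 to 0.0643 for Itga3 and -0.0435 to 0.318 for Col9a3. Against siMbd2, miR-294 gave -0.0552 to 0.198 for Col9a2 and -0.0375 to 0.109 for Col9a3. For siMbd2 against CTR they were -0.0902 to 0.103 for Col18a1, -0.0716 to 0.116 for Col26a1, -0.182 to 0.0059 for Col4a3bp, -0.0794 to 0.282 for Col9a3, -0.0079 to 0.237 for Itga5, -0.0818 to 0.0614 for Itgb1, -0.16 to 0.142 for Itgb7, -0.0406 to 0.211 for Lamb1, -0.243 to 0.0416 for Lamb2, -0.0964 to 0.0072 for Sparc and -0.0211 to 0.259 for Loxl4.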
